A study of Mus musculus with 6 samples.

Results

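The miRNAs described here are both arms of miR-204, mmu-miR-204-5p and mmu-miR-204-3p, and mmu-miR-211-5p of the related miR-211 (the species prefix is left out below). They are taken by name and are 3 of the 1182 rows of a table of small RNA read counts. The table covers 6 libraries of cortex from adult male mice, 3 of Fmr1 knockout (KO) and 3 of wild-type (WT) genotype, age-matched siblings that received no treatment. Total RNA came from whole cortex. The allele is not named in the labels, and the small RNA table does not measure Fmr1 itself, so the genotype rests on the label alone. Replicate numbers only name libraries. The labels do not tie each library to its own animal, so p-values measure the spread between these libraries, which may in part be technical.

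A miRNA is cut from a hairpin precursor, and either arm of the hairpin can be loaded into an Argonaute protein, where bases 2 to 8 of the miRNA (the seed) pair with target messenger RNAs. The arm that is loaded more often is the guide strand and the other the passenger strand. miR-204 and miR-211 are known for high levels in the choroid plexus, the epithelium that secretes cerebrospinal fluid, and in the retinal pigment epithelium, and miR-211 also in melanocytes. In the adult mouse brain, miR-204 from the choroid plexus has been linked to the upkeep of quiescent neural stem cells, and in medaka fish miR-204 acts in eye development through Meis2. The tissue here was cortex, not choroid plexus.

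Both hairpins lie in introns of genes of the TRPM family of cation channels. The mature sequences are from RefSeq (GRCm38.p6, the assembly that mm10 names), 4 of 4 arms matched by name, and are shown because the guide strands of the 2 loci are nearly the same molecule. Capitals mark the seed, and each sequence runs 5′ to 3′.
miR-204-5p: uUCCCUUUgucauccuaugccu
miR-211-5p: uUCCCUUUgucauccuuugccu
miR-204-3p: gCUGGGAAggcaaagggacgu
miR-211-3p: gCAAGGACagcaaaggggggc

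The guide strands miR-204-5p and miR-211-5p are both 22 bases long and share the seed UCCCUUU. They are identical at 21 bases and differ by the substitution A17U, counted from 1 at the 5′ end of miR-204-5p. Of 1679 mature mouse miRNA names in RefSeq, 3 carry this seed. The third, miR-7670-3p, had no row of read counts and so was not analysed here, and the same held for miR-211-3p. The passenger miR-204-3p is 21 bases long and has a different seed. It holds the motif AAAGGGA, the complement of the guide seed, at bases 12 to 18 (this strand alone searched), which 3 of the 1679 names hold (0.179%). The passenger is the opposite arm of the guide's own hairpin, where the arms pair, so this share is not a test of the match.

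The precursor hairpins are given with their mature arms in capitals.
Mir204 hairpin: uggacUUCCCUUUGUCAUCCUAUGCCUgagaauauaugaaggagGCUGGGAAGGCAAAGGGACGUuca
Mir211 hairpin: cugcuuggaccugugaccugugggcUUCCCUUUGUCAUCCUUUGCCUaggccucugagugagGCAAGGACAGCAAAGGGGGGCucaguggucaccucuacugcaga

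The Mir204 hairpin lies at chr19:22750605-22750672 on the plus strand, and the Mir211 hairpin at chr7:64205806-64205911, also on the plus strand. In the GENCODE annotation of the same assembly, all 18 transcripts of Trpm3 that span the Mir204 hairpin place it in an intron, of 16788 to 33462 bases. Likewise all 12 transcripts of Trpm1 that span the Mir211 hairpin place it in an intron, of 3682 to 43843 bases. Both host genes are read from the plus strand too. Trpm1 is best known as a channel of retinal bipolar cells and melanocytes.

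Libraries held 11182888 to 14385332 miRNA reads in KO and 13225790 to 15733876 in WT. Of the 1182 rows, 541 passed the filter on low counts, including all 3 members. Levels are given as CPM (read counts scaled to a common library total) on a scale adjusted for composition between libraries, and apply to mature miRNAs of near-equal length. KO replicate 3 was the shallowest library and had the highest value of the 6 for 159 of the 541 tested miRNAs (29.4%). Over tested miRNAs, log2 CPM had a median SD of 0.408 among KO libraries and 0.142 among WT libraries.

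The guide miR-204-5p was by far the most abundant of the 3. Its level was 765.8, 663.9 and 1621 CPM in KO replicates 1 to 3, against 667.3, 683.1 and 743.3 CPM in WT replicates 1 to 3. These values rest on 11220, 7893 and 19664 reads in KO and 10181, 9278 and 11301 in WT. KO replicate 3 stood apart, KO replicates 1 and 2 lay near the WT libraries, and KO replicate 2 was below all of them, so the groups overlapped. The level in KO replicate 3 was 2.32-fold that of the WT mean and 2.27-fold that of the other KO libraries. By mean CPM, miR-204-5p ranked 63 among the 541 tested miRNAs, and it took 0.0549% to 0.176% of reads per library in KO and 0.0687% to 0.0718% in WT.

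**Figure D1:**
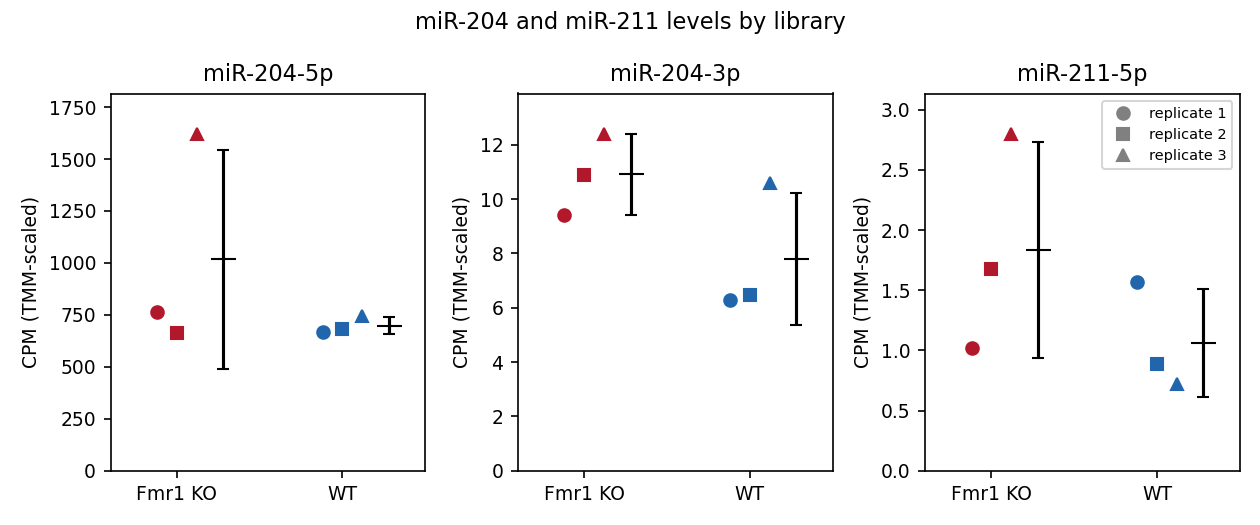
Level of each miRNA (CPM, linear axis from 0) in 3 Fmr1 KO libraries and 3 WT libraries, with symbols for replicates and black marks for the mean ± SD of each genotype. KO replicate 3 is the highest library in every panel, at 1621 CPM for miR-204-5p, and the genotypes overlap in all 3 panels.

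In KO, miR-204-5p averaged 1017 ± 526 CPM, and in WT it averaged 697.9 ± 40.1 CPM (SD, n = 3 each). The log2 fold change of KO over WT was 0.54 (SE 0.32), with a 95% interval of -0.19 to 1.27, and did not pass the test (edgeR quasi-likelihood test, Benjamini-Hochberg adjusted p = 0.749 over 541 miRNAs). Without KO replicate 3 the log2 fold change was 0.05 (SE 0.11, adjusted p = 0.873). Its log2 CPM had an SD of 0.692 among KO libraries and 0.0818 among WT libraries, against the medians over all tested miRNAs given above.

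The passenger arm miR-204-3p was far less abundant than the guide. It had 9.42, 10.9 and 12.4 CPM in the KO libraries (138, 130 and 151 reads), against 6.29, 6.48 and 10.6 CPM in the WT libraries (96, 88 and 161 reads). The KO values lay close together, while WT replicate 3 was well above the other WT libraries and inside the KO range, so here too the groups overlapped. Means were 10.93 ± 1.51 CPM in KO, against 7.787 ± 2.43 CPM in WT (SD, n = 3 each). The log2 fold change was 0.49 (SE 0.27, 95% interval -0.12 to 1.10, edgeR adjusted p = 0.749). Unlike for the guide, most of this difference stayed without KO replicate 3 (0.40, SE 0.25, adjusted p = 0.446), and without WT replicate 3 it was 0.79 (SE 0.27, adjusted p = 0.96). It did not pass in any of these fits.

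The guide of the Trpm1 locus, miR-211-5p, was represented by few reads in cortex. It had 15, 20 and 34 reads in the KO libraries, against 24, 12 and 11 in the WT libraries. The levels were 1.02, 1.68 and 2.8 CPM in KO libraries, against 1.57, 0.884 and 0.723 CPM in WT libraries. KO replicate 3 was again the highest, and WT replicate 1 lay within the KO range. The exact Poisson 95% interval of KO replicate 3 was 1.94 to 3.92 CPM and that of WT replicate 1 was 1.01 to 2.34 CPM, so that these intervals overlapped. Such intervals cover counting error only, since reads without molecular identifiers are not independent molecules.

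Mean levels of miR-211-5p were 1.836 ± 0.899 CPM in KO, against 1.06 ± 0.451 CPM in WT (SD, n = 3 each). The log2 fold change was 0.77 (SE 0.48, 95% interval -0.33 to 1.87) and did not pass (edgeR adjusted p = 0.752). It was 0.34 (SE 0.46, adjusted p = 0.752) without KO replicate 3, and 1.17 (SE 0.55, adjusted p = 0.978) without WT replicate 1. The estimate therefore moved by more than 1.5 times with either library left out.

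None of the 3 was called, as was the case for all tested miRNAs (0 of 541, 0%, edgeR, with 0 also by DESeq2 and limma-voom). Before adjustment, 35 miRNAs had an edgeR p under 0.05, 3.33% of those tested with higher and 3.14% with lower values in KO, and 0 of them were members. All 3 had a higher mean in KO, a direction shared by 52.5% of all tested miRNAs, and none had every KO library above every WT library, as 5.18% did. Without KO replicate 3, 18 of 560 miRNAs were called (3.21%), and none of them was a member.

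The question of whether the balance of the miR-204 arms differs by genotype needs no scaling between libraries, since both counts of a ratio come from the same library. Reads of miR-204-5p outnumbered those of miR-204-3p by 81.3, 60.7 and 130 to 1 in the KO libraries, against 106, 105 and 70.2 to 1 in the WT libraries. The log2 ratio averaged 6.43 ± 0.555 in KO, against 6.53 ± 0.341 in WT (SD, n = 3 each). The difference of -0.10 was smaller than the spread between libraries (exact two-sided permutation p = 0.9, where 0.1 is the smallest p that 3 against 3 allows). Its sign turned with KO replicate 2 left out (0.158) and, at 0.005, with WT replicate 1 left out.

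The share of the 3p arm varied between libraries of either genotype. It made up 1.22%, 1.62% and 0.762% of miR-204 reads in KO replicates 1 to 3, against 0.934%, 0.94% and 1.4% in WT replicates 1 to 3. The Wilson 95% interval of KO replicate 3, 0.65% to 0.893%, lay below those of KO replicate 1 (1.03% to 1.43%), KO replicate 2 (1.37% to 1.92%) and WT replicate 3 (1.2% to 1.64%), and overlapped those of WT replicate 1 (0.766% to 1.14%) and WT replicate 2 (0.763% to 1.16%). These intervals cover counting error only and do not include the spread between samples. In KO replicate 3 the guide was 2.27-fold, and the passenger 1.22-fold, the mean of the other KO libraries. Such departures were common in that library: over 143 hairpins with both arms tested, its log2 arm ratio lay a median of 0.62 from the mean of the other 5 libraries in either direction, and that of miR-204 lay 0.65 from it.

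**Figure D2:**
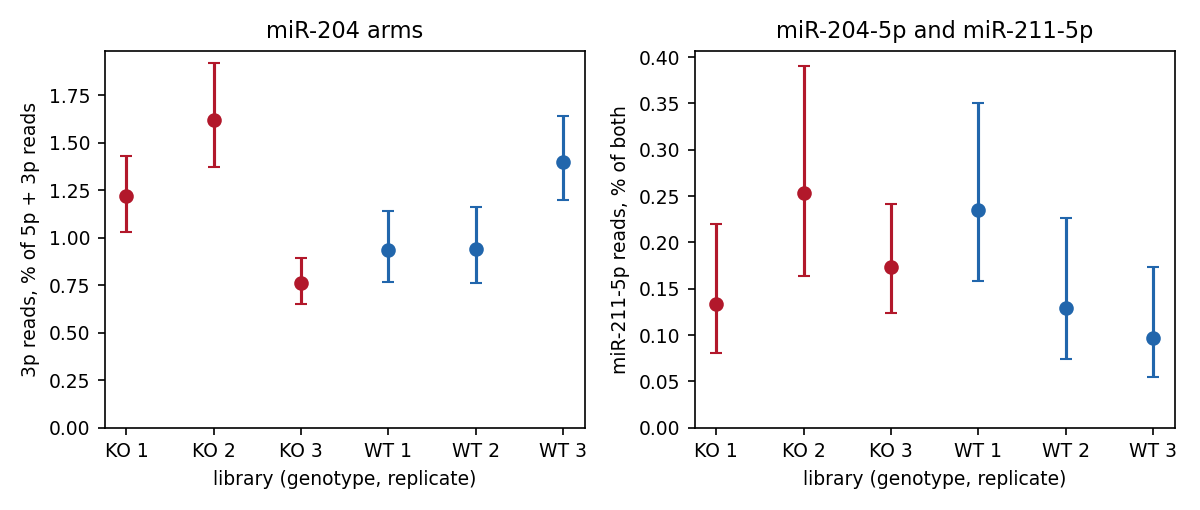
Left, reads of miR-204-3p as a percentage of reads of both miR-204 arms, and right, reads of miR-211-5p as a percentage of reads of miR-204-5p and miR-211-5p, for each library, KO in red and WT in blue, with Wilson 95% intervals. The 3p share is highest in KO replicate 2 (1.62%) and lowest in KO replicate 3 (0.762%), and the miR-211-5p share stays at or below 0.253%.

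Nearly all reads of the 2 guides that share the seed were assigned to the Trpm3 locus. The miR-211-5p share of the reads of both guides was 0.134%, 0.253% and 0.173% in the KO libraries, against 0.235%, 0.129% and 0.0972% in the WT libraries, with Wilson intervals that reached from 0.0543% to 0.39% over all 6. The groups overlapped. As log2 ratios of miR-204-5p to miR-211-5p, the means were 9.12 ± 0.464 in KO, against 9.44 ± 0.651 in WT (SD, n = 3 each, difference -0.33, exact permutation p = 0.4). Because the 2 guides differ by 1 base and no source used here gives the mismatches allowed in mapping, some miR-211-5p reads may belong to miR-204-5p. This was not tested.

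Summed over both guides, the seed stood at 766.8, 665.6 and 1624 CPM in KO libraries, against 668.9, 684 and 744 CPM in WT libraries. On the log2 scale the mean was 9.88 ± 0.691 in KO, against 9.45 ± 0.081 in WT (SD, n = 3 each). The difference of 0.43 was within the spread of the KO libraries (exact permutation p = 0.4, and 0.03 with p = 0.8 without KO replicate 3). Adjusted over the 3 permutation tests made, the p-values were 0.9 for the arms, 0.6 for the 2 guides and 0.6 for their sum.

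Other miRNAs associated with the choroid plexus and with multiciliated cells were set beside these values. In bulk tissue, more cells of a type and more RNA per cell cannot be told apart. The miR-34b/c and miR-449 miRNAs act in the formation of motile cilia. Of 9 such arms listed, 6 had a row and 3 passed the filter, with 3 of 3 higher in KO on average, 0 called and a median log2 fold change of 0.33, against 0.03 over all tested miRNAs. The 3 include both arms of miR-34c and so are not all separate evidence, and 52.5% of all tested miRNAs were higher in KO. The most abundant, miR-34c-5p, had 238, 351 and 468 CPM in KO libraries, against 290, 308 and 284 CPM in WT libraries (log2 fold change 0.26, SE 0.25, edgeR adjusted p = 0.801). The 6 libraries ran from KO replicate 1, the lowest, to KO replicate 3, the highest.

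Among the lower members of this list, miR-34b-3p (log2 fold change 0.33, SE 0.26) and miR-34c-3p (0.87, SE 0.41) did not pass either. For miR-34c-3p, KO replicate 3 had 5.94 CPM, against 1.71 to 2.14 CPM over the WT libraries. The 3 arms with a row that did not pass the filter had few reads. Levels of miR-34b-5p were 0.614, 1.01 and 1.24 CPM in KO libraries, against 0.197, 0.221 and 0.263 CPM in WT libraries. Every KO library lay above every WT library, but on 46 reads in all and without a test. Among the 541 tested miRNAs, 5.18% had every KO library above every WT library and 10.5% had every KO library below. A marker of multiciliated cells, miR-449a-5p, had 0.478, 0.421 and 0.659 CPM in KO libraries, against 0.983, 0.442 and 1.05 CPM in WT libraries, and miR-449c-5p had 2 reads in all, with 0 in 4 libraries. Summed levels of the list ran from 245.6 to 483 CPM in KO and from 292 to 315.4 CPM in WT.

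A further set comes from introns of Htr2c, a serotonin receptor gene that is strongly expressed in choroid plexus and also in neurons. Of its 10 arms, 6 passed the filter. On average 6 of 6 were higher in KO, 5 of 6 without KO replicate 3, with 0 called and a median log2 fold change of 0.47 (0.35 without that library). The 6 share 1 host gene and include both arms of miR-1264 and of miR-1298, so they are not separate evidence. Of all tested miRNAs, 52.5% were higher in KO. The dominant product, miR-1298-5p, had 898, 1443 and 4247 CPM in KO libraries, against 858, 810 and 1035 CPM in WT libraries (log2 fold change 1.29, SE 0.56, edgeR adjusted p = 0.747). Its other arm, miR-1298-3p, had 76.6, 58 and 76.2 CPM in KO libraries, against 57.2, 56 and 60.1 CPM in WT libraries. As with miR-204, then, KO replicate 3 was far above the rest for the guide and not for the other arm. miR-448-3p, at 5.6, 8.66 and 19.9 CPM in KO libraries, against 4.65, 4.27 and 4.41 CPM in WT libraries, had the largest log2 fold change of this list (1.35, SE 0.44, edgeR adjusted p = 0.694). Every KO library lay above every WT library for it, as for 5.18% of the 541 tested miRNAs. For 10.5% of the 541, every KO library lay below every WT library.

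**Figure D3:**
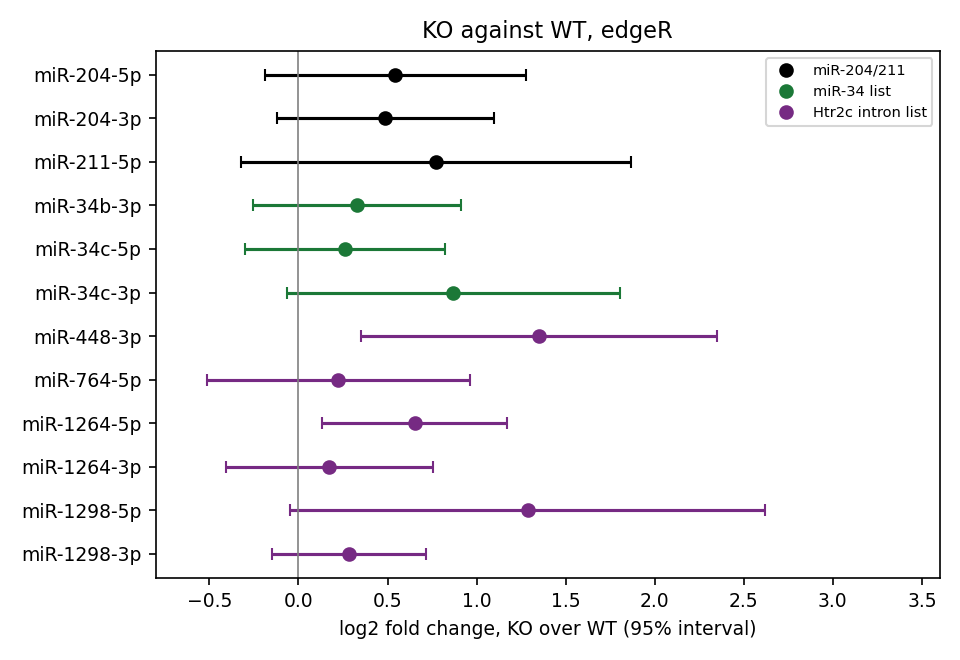
Log2 fold change of KO over WT with its 95% interval (edgeR) for the miR-204 and miR-211 members in black, the tested miR-34 arms in green and the tested Htr2c intron miRNAs in purple. Every plotted estimate is above 0, from 0.17 to 1.35, and none passed after adjustment over 541 miRNAs, of which 52.5% had an estimate above 0. The other lists are not plotted. Their medians were 1.95 (miR-200 family), 0.04 (erythroid), -0.03 (neuronal) and -0.16 (oligodendrocyte).

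Lists of other cell types were set beside these values too. The miR-200 family, typical of epithelium and olfactory neurons, summed to 17.4, 974.3 and 1038 CPM in KO libraries, against 164.6, 89.9 and 311 CPM in WT libraries, so it was lowest in KO replicate 1 and near-equal in KO replicates 2 and 3, whereas miR-204-5p was high in KO replicate 3 and not in KO replicate 2. All 7 of its tested arms had a higher KO mean, with a median of 1.95 and 0 called, although the median was 0.66 by limma-voom and 0.81 by limma on log2(TPM + 1). The 7 include both arms of miR-200a and so are not all separate evidence. Erythroid miRNAs, which report blood in the tissue, summed to 164.9 to 209.7 CPM in KO and 165.9 to 168 CPM in WT, with 5 of 6 higher, a median of 0.04 and 0 called. Of these, miR-486a-5p, miR-486a-3p and miR-486b-3p had near-identical counts and are not separate evidence. They were lowest in KO replicate 3, at 38.3 to 38.5 CPM, against 41.6 to 45.6 CPM over the WT libraries. In that list miR-451a had 43.3, 36.2 and 80.1 CPM in KO libraries, against 28.8, 39.7 and 30.3 CPM in WT libraries.

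The neuronal list summed to 106800 to 121500 CPM in KO and 117700 to 130700 CPM in WT, with 3 of 6 higher in KO, 0 of 6 without KO replicate 3 and a median of -0.03. Most of this sum was miR-128-3p, at 90410 CPM in KO replicate 3, and 4 of the 6 members had their highest value in that library. For miR-129-2-3p the levels were 305, 212 and 699 CPM in KO libraries, against 298, 239 and 268 CPM in WT libraries. The values of miR-124-3p in KO replicates 1 to 3 were 1354, 1297 and 2118 CPM, against 1796, 1830 and 1611 CPM in WT replicates 1 to 3. The oligodendrocyte list summed to 632.2 to 873.9 CPM in KO and 856.9 to 973.7 CPM in WT, with 1 of 4 higher in KO, 0 of 4 without KO replicate 3 and a median of -0.16. The oligodendrocyte sum was mainly miR-219a-2-3p, so it does not speak for each member. In KO replicate 3 that arm (518 CPM) and miR-338-5p (73.9 CPM) were below every WT library. By contrast, miR-338-3p stood at 32.7 CPM there, above the WT range of 17.3 to 21.4 CPM. The remaining arm, miR-219a-5p (7.5 CPM), was inside its WT range. Neither the neuronal nor the oligodendrocyte list had a called member. In KO replicate 3, relative to the WT mean, miR-204-5p stood at 1.22 log2 units, the miR-200 family sum at 2.46, the Htr2c intron sum at 2.15, the sum of the miR-34 and miR-449 list at 0.68, the erythroid sum at 0.24, the neuronal sum at -0.20 and the oligodendrocyte sum at -0.52. The part of any of these in the miR-204 and miR-211 values was not tested.

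**Figure D4:**
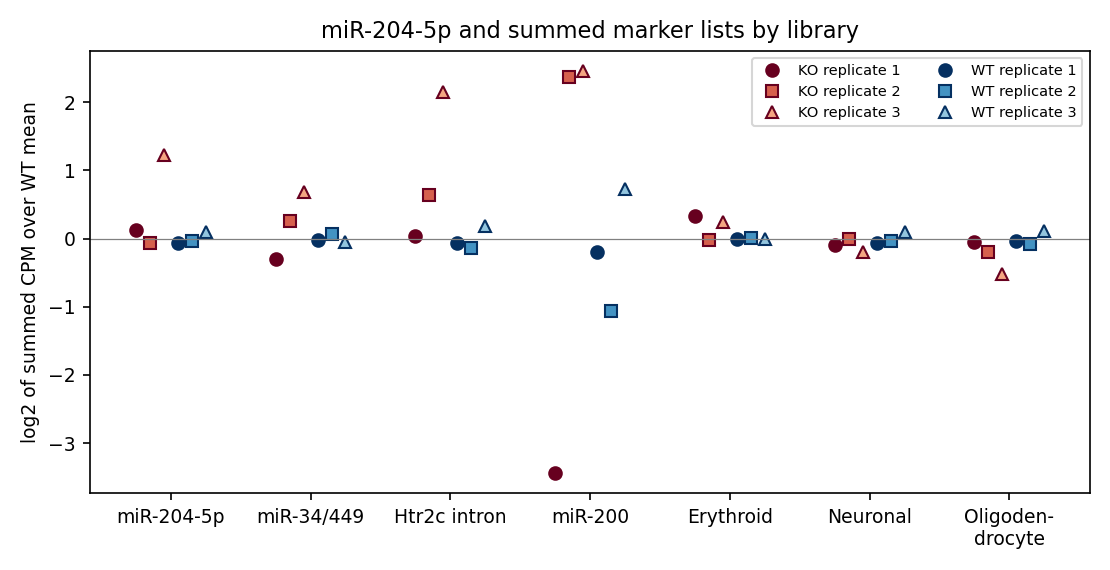
Level of miR-204-5p and summed level of each marker list in each library, as log2 of CPM over the WT mean, with KO libraries in red shades left of WT libraries in blue shades. For miR-204-5p, KO replicate 3 stands at 1.22 and the other 5 libraries lie between -0.07 and 0.13, and the miR-200 family reaches from -3.44 to 2.46.

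The miRNAs whose profile over the 6 libraries was most like that of miR-204-5p were ranked by the root mean square difference of log2 CPM, each profile centred on its own mean, among 301 tested miRNAs with a mean of at least 10 CPM. The 8 closest were miR-342-3p (0.147), miR-664-3p (0.15), miR-212-3p (0.156), miR-16-5p (0.157), a predicted miRNA without a miRBase name (0.166), miR-129-2-3p (0.17), miR-384-5p (0.18) and miR-326-3p (0.185). The median over the 301 was 0.553, and a profile flat over the libraries would lie at 0.455. Since miR-204-5p was itself highest in KO replicate 3, the choice by likeness favoured miRNAs that were highest there. All 8 were, against 29.4% of the tested miRNAs. For instance, miR-342-3p had 100, 78.6 and 263 CPM in KO libraries, against 91.9, 83.3 and 99.2 CPM in WT libraries. This is a description over 6 libraries in which 1 library weighs most.

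**Figure D5:**
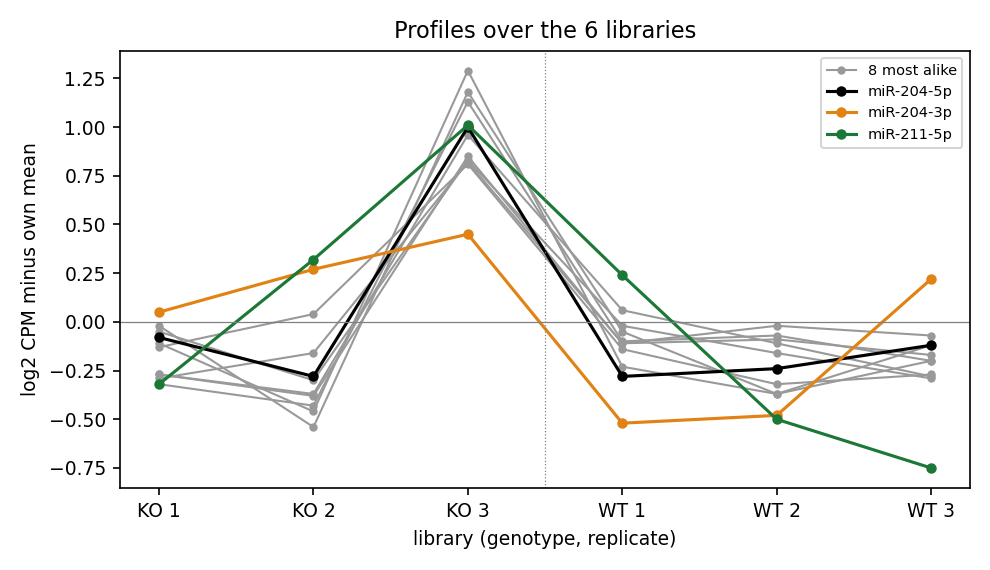
Log2 CPM minus each miRNA's own mean in the 6 libraries, KO left and WT right of the dotted line, for the miR-204 and miR-211 members (coloured) and the 8 miRNAs most like miR-204-5p (grey), where lines join the values of 1 miRNA. In KO replicate 3, miR-204-5p stands at 1.0 and miR-211-5p at 1.01, while miR-204-3p stands at 0.45.

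Of the miR-34 and miR-449 list and the Htr2c intron list, only miR-34c-5p, miR-1264-5p and both miR-1298 arms reached 10 CPM and were ranked, and none of these 4 was among the 8. miR-1264-5p came at place 22 (0.256), miR-34c-5p at place 36 (0.304), miR-1298-3p at place 43 (0.345) and miR-1298-5p at place 83 (0.451) of the 301. The difference counts the size of a rise as well as the shape of the profile. In KO replicate 3, miR-1298-5p stood 2.07 log2 units above the mean of the other libraries, against 1.2 for miR-204-5p. From the erythroid list, miR-451a came at place 10 (0.192). The ranked miR-486 arms of that list came at places 145, 146 and 151 (0.545 to 0.553). From the neuronal list, miR-129-2-3p came at place 6, miR-138-5p at 25, miR-137-3p at 37, miR-124-3p at 48, miR-128-3p at 133 and miR-129-5p at 142. From the oligodendrocyte list, miR-338-3p came at place 30, miR-338-5p at 143 and miR-219a-2-3p at 210. Places from 22 to 48 were thus not particular to the miR-34 and Htr2c intron lists. The passenger arm miR-204-3p (0.377) was farther from miR-204-5p than 54 of the 301 miRNAs, and miR-211-5p (0.438) was farther than 76 of the 301. The 5 ranked arms of the miR-200 family lay at 1.66 to 2.26, places 296 and 298 to 301 of the 301.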

How the data were processed

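Small RNA libraries from 6 cortices were analysed from the table the authors deposited, with whole-number read counts per miRNA and, per the file headers, TPM values. The deposited TPM columns are the counts divided by the library total, with no length term, and served for 1 alternative test. The submitters' processing notes name Bowtie, DESeq2 and mm10 and give no versions. How reads were trimmed, the mismatches allowed, and the handling of multiply mapping reads and strand are stated in no source used here. Columns were matched to samples by the number in the title, and 0 columns belonged to no sample.

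Counts were tested in R 4.3.3 with edgeR 4.0.16 (filterByExpr with a minimum count of 10, TMM factors from 0.8265 to 1.092, robust quasi-likelihood test, KO over WT, Benjamini-Hochberg over 541 miRNAs, threshold 0.05). TMM-scaled CPM are printed. DESeq2 1.42.0 and limma 3.58.1 served as alternatives. Ratios within a library were compared by exact two-sided permutation (SciPy 1.17.1). The edgeR fit alone, not the permutation tests, was also run on simulated counts with known changes. These counts had the same spread in both genotypes, unlike the libraries here, so the run does not show how the fit behaves on them. For duplicates, counts of libraries of 1 genotype were compared by chi-square, and the lowest value per degree of freedom, 30, was far above sampling noise. Values were 30 to 37.3 for pairs of WT libraries and 354 to 618 for pairs of KO libraries. KO replicates 1 and 2 differed by 542, more than KO replicates 2 and 3 at 354.

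The members, lists and tests were chosen with earlier results of these data known. The text names the members, up to 4 miRNAs per list by mean CPM plus the one with the largest fold change, and the 8 nearest profiles to miR-204-5p, or 5 to miR-211-5p (log2 CPM with a prior count of 2). miR-34b-5p, miR-449c-5p, the miR-486 arms and the hairpins set beside miR-204 in the closing section were named after their values were seen.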

Additional observations from a re-analysis of the deposited data

How the results depend on the processing

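Over 13 alternatives each (DESeq2 size factors, total counts, scaling without the 5 most abundant miRNAs, no filter, DESeq2, limma-voom, limma on log2(TPM + 1), and each library left out), the 3 members kept a higher KO mean and none passed. Over left-out libraries the log2 fold change ranged from 0.049 to 0.754 for miR-204-5p, 0.349 to 0.785 for miR-204-3p and 0.343 to 1.172 for miR-211-5p, and over the other settings from 0.407 to 0.591, 0.451 to 0.524 and 0.423 to 0.815. Adjusted p-values were at least 0.399. The count of called miRNAs was 0 in all settings but without KO replicate 3 (range 0 to 18). The cause was not tested. The log2 arm ratio of miR-204 ranged from -0.393 to 0.158 with a library left out, where its sign turned without KO replicate 2 (0.158) and without WT replicate 1 (0.005), and was -0.093 with 1 read added. The ratio of the guides ranged from -0.684 to -0.046 and their sum from 0.033 to 0.676, with no change of sign. Counts of list members without KO replicate 3 were added after the data were seen. No paired analysis was possible because replicate numbers follow accession order and pair no libraries. Depth limits miR-211-5p most, with 116 reads in all libraries together.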

Other observations

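The arm balance of miR-204 can be set beside that of 143 hairpins with both arms tested and read in every library, a comparison added after the data were seen. In KO replicate 3 the log2 ratio of 5p to 3p reads of miR-204 was 0.65 above the mean of the other 5 libraries. The median absolute departure of that library over the 143 hairpins was 0.62, with 75 of the departures positive, and miR-204 ranked 70 by size. Its range over the 6 libraries was 1.1, against a median of 1.14. The miR-1298 hairpin departed by 1.79 (rank 16) and the miR-1264 hairpin by 0.97 (rank 44), in the same direction. The miR-34c hairpin departed by -0.80 and the miR-342 hairpin by -0.75, in the other. The widest departure was that of let-7g, at -4.29, whose 3p arm had 118 reads in all.

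For miR-211-5p the 5 closest profiles among the 301 miRNAs were those of miR-376b-5p (0.281), miR-384-5p (0.306), miR-30b-5p (0.339), miR-135b-5p (0.351) and miR-29c-5p (0.351). A single name, miR-384-5p, stood on the lists of nearest profiles of both guides. It had 59.9, 67.6 and 115 CPM in KO libraries, against 59.6, 52.6 and 54.5 CPM in WT libraries (log2 fold change 0.54, SE 0.27, edgeR adjusted p = 0.749). The profile of miR-211-5p rests on 11 to 34 reads per library, so that counting error enters its likeness to any other.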
